A study of Homo sapiens with 6 samples.

Results

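Membrane mucins and sialomucins were followed as 8 genes: the transmembrane mucins MUC1, MUC4, MUC13, MUC15 and MUC16 and the sialomucins CD164, PODXL and EMCN. They were taken by gene name from the 18404 genes that the array annotation names, and each was measured by 1 probe set, a group of probes summarised into 1 value. The group was selected on the intensities of MUC15 and CD164, which are strongly lower with the SALL4 hairpin on these same arrays, so the differences of all 8 genes are given as descriptions without a test. The arrays were hybridized with total RNA of SNU-398, a human cell line established from hepatocellular carcinoma and grown in RPMI with 10% serum. In all, 3 cultures carried a scrambled short hairpin RNA (shRNA) as the control and 3 carried a hairpin that targets SALL4, a zinc finger protein that acts as a transcription factor in the early embryo and the fetal liver. In the labels the 3 cultures of a group are biological replicates. They do not say how the hairpins were delivered, how long the cells carried them or whether a second SALL4 hairpin was used, so other effects of this hairpin and those of lower SALL4 cannot be told apart.

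Membrane mucins are large proteins that cross the plasma membrane and carry a long outer stretch rich in serine and threonine, to which dense chains of O-linked sugars are attached. The sugars often end in sialic acid, and proteins of this kind with many sialic acids are called sialomucins. Mucins form part of the sugar coat of epithelial cells, hold other cells at a distance, and through their inner tails bind growth factor receptors, catenins or the actin cytoskeleton. In normal liver MUC1 is known mainly from bile ducts, and changed mucin levels are a common feature of carcinomas.

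The deposited values are intensities on a linear scale with a floor at 10, and array medians lay between 47.85 and 51.69. SALL4 itself was at 283, 264 and 335 on the scrambled arrays and at 121, 119 and 117 on the SALL4 shRNA arrays. Its log2 difference, SALL4 shRNA minus scrambled, was -1.30 ± 0.18 (SE), or 40.6% of the control, with an adjusted p in limma of 0.0112 among 13711 genes bright enough to test, called the filtered fit, and 0.0946 among all 18404. Markers fixed for liver tumour cells were uneven. ALB, serum albumin, lay between 10.13 and 12.78 on all 6 arrays, close to the floor, and AFP between 10.62 and 17.76. GPC3, a fetal liver proteoglycan, lay between 119 and 165. Among 7 blood cell markers PTPRC and LYZ were at the floor of 10 on every array. The others were above it on every array. CD79A lay between 32.27 and 53.96, MPO between 21.03 and 35.21, and CD14 between 18.67 and 30.31. CD2 lay between 19.54 and 32.03, and CD3E between 17.64 and 26.13.

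The transmembrane mucin MUC15 was the member with the largest difference. It is a heavily glycosylated membrane protein that has been studied in liver cancer as a partner of the epidermal growth factor receptor. Its intensity was 159, 130 and 124 on the scrambled arrays and 43.5, 31.4 and 34.3 on the SALL4 shRNA arrays. Every SALL4 shRNA array was below every scrambled array, and the lowest scrambled value was well above the highest SALL4 shRNA value. The group means were 138 ± 18.6 and 36.4 ± 6.31 (SD, n = 3 each). The log2 difference was -1.93 ± 0.20 (SE), which leaves 26.3% of the control intensity. Of the 13711 genes of the filtered fit, 4, MUC15 included, were this low or lower. MUC15 was chosen on these same values, so nothing is read from its rank. In RNA of whole cultures, fewer cells with a transcript and less of it per cell cannot be told apart.

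MUC1, the apical mucin of many epithelia whose tail binds beta-catenin, was at 37.2, 63.4 and 55.5 with the scrambled shRNA and at 66.4, 69.2 and 55.5 with the SALL4 shRNA. The groups overlapped, and scrambled replicate 1 was the low value. The log2 difference was 0.32 ± 0.22 (SE), and without scrambled replicate 1 it was 0.096. MUC4, a mucin that binds the receptor ERBB2, was dim in both groups, at 29.3, 35.6 and 23 against 26, 23.1 and 22.1. Its log2 difference was -0.28 with an unmoderated SE of 0.20, computed from these 6 values alone, and its groups overlapped. It was -0.13 without scrambled replicate 2 and -0.45 without scrambled replicate 3.

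MUC16, which carries the CA125 antigen and binds mesothelin, was at 30.3, 31.2 and 22.7 with the scrambled shRNA and at 31, 26.5 and 30.4 with the SALL4 shRNA. These values overlap almost completely, with a log2 difference of 0.07 and an unmoderated SE of 0.16. MUC13, a mucin of the gut lining, was listed at exactly 10 on all 6 arrays. It therefore has only an upper bound in both groups, and no difference can be given.

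Among the sialomucins CD164 was lower with the SALL4 shRNA. CD164, also called endolyn, is found on blood progenitor cells, where it can associate with the chemokine receptor CXCR4, and in endosomes and lysosomes of many cell types. Its intensity was 1250, 1071 and 1097 on the scrambled arrays and 515, 418 and 388 on the SALL4 shRNA arrays. The highest SALL4 shRNA value was below the lowest scrambled value, as for MUC15. The means were 1139 ± 96.6 and 440.5 ± 66.6 (SD, n = 3 each). The log2 difference was -1.38 ± 0.19 (SE), or 38.5% of the control. In the filtered fit 42 genes, CD164 included, were this low or lower, a rank that also rests on the values used for the choice.

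PODXL, podocalyxin, is the sialomucin of kidney podocytes and is also carried by pluripotent stem cells; it reaches the actin cytoskeleton through NHERF adaptors and ezrin. It was at 211, 175 and 201 with the scrambled shRNA and at 294, 200.4 and 247 with the SALL4 shRNA. The lowest SALL4 shRNA array, replicate 2, lay among the scrambled values, so the groups overlapped. The log2 difference was 0.33 ± 0.20 (SE), opposite in sign to that of CD164, and was 0.19 without SALL4 shRNA replicate 1. EMCN, endomucin of capillary and venous endothelium, was at the floor on 3 of 6 arrays and never above 12.58, so no difference is given for it.

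**Figure D1:**
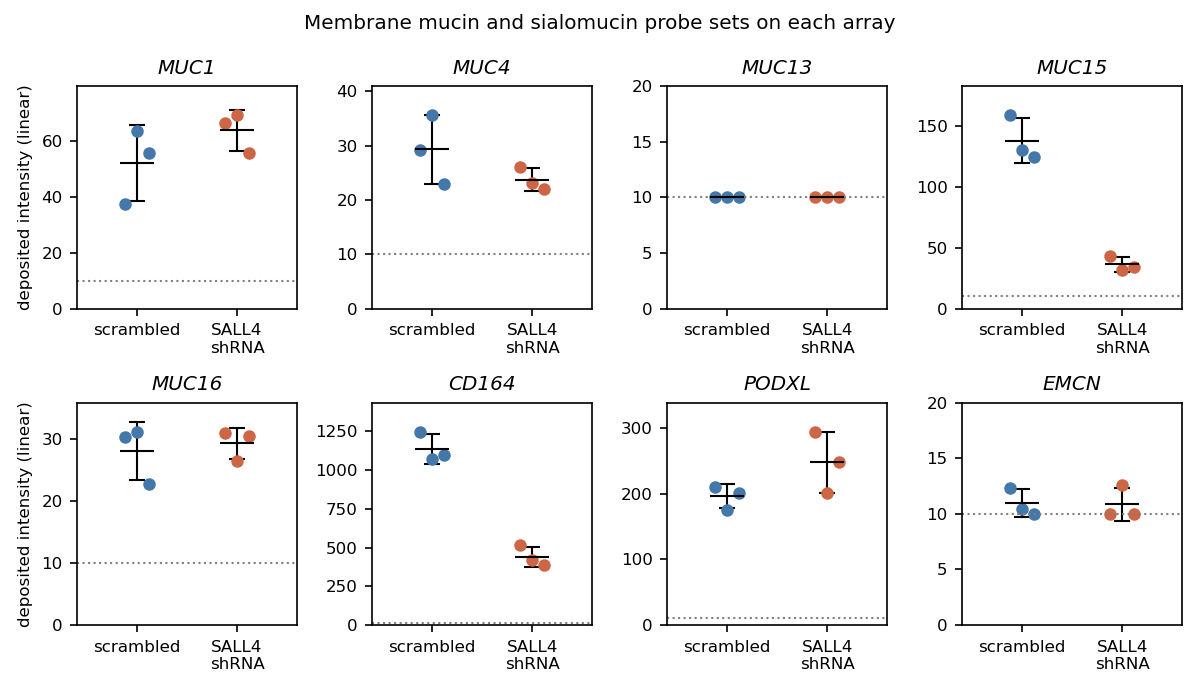
Deposited linear intensity (vertical axis, from 0 in each panel) of the 8 probe sets on the 3 scrambled and 3 SALL4 shRNA arrays. Points are arrays, bars are the mean and SD (n = 3), and the dotted line is the floor at 10. MUC15 and CD164 separate the groups downward, and in the other 6 panels the groups overlap.

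Of the 8 members, 4 (MUC1, MUC15, CD164 and PODXL) were in the filtered fit, which kept a gene where its mean log2 intensity in either group reached 5, about 32 on the linear scale. All 4 were above that mean in both groups. MUC4 and MUC16 lay just under it, and MUC13 and EMCN at or near the floor. Non-overlapping groups with lower values under the SALL4 shRNA were seen in 2 of these 4 members, MUC15 and CD164, and in 11% of all genes of the fit. A log2 difference below -1 was seen in the same 2 members and in 1.25% of all genes of the fit. Since these 2 genes are the reason for the choice, nothing is read from these counts. The 4 members had a median log2 difference of -0.53 against 0.015 for the 13711 genes, and that median lies between a pair of low and a pair of positive values.

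**Figure D2:**
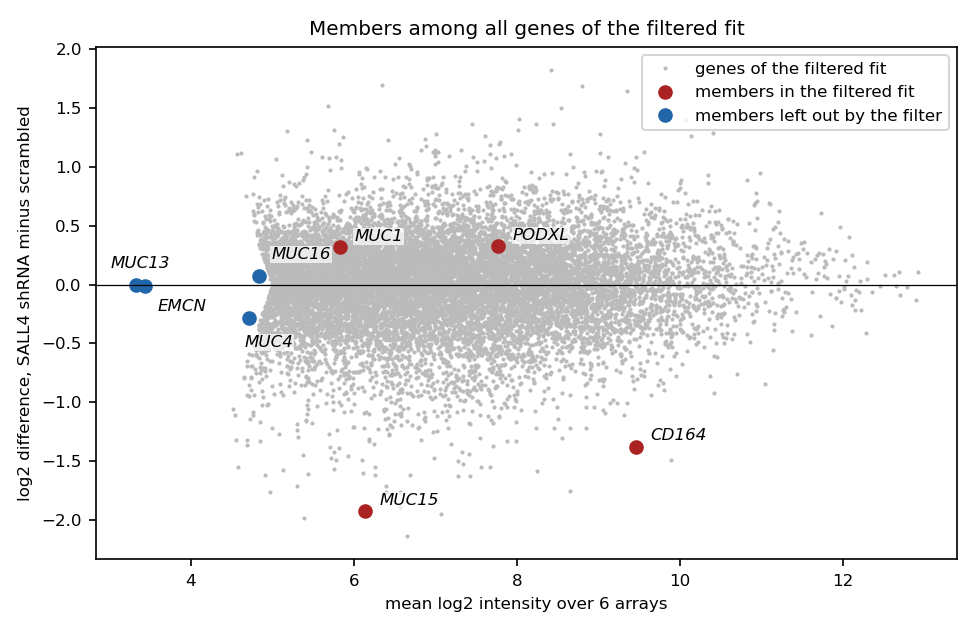
Log2 difference, SALL4 shRNA minus scrambled (vertical axis), against mean log2 intensity over 6 arrays (horizontal axis) for the 13711 genes of the filtered fit in grey and the 8 members in colour. MUC15 at -1.93 and CD164 at -1.38 lie at the lower edge, MUC1 and PODXL lie inside the cloud, and the 4 members left out by the filter are at its dim end.

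The arrays of a group differed among themselves in MUC15 and CD164. Relative to its scrambled mean, MUC15 was at -1.66 on the log2 scale on SALL4 shRNA array 1, at -2.13 on array 2 and between these on array 3, and CD164 was at -1.14, -1.44 and -1.55. For both genes replicate 1 was the array with the smallest loss, while SALL4 was nearly level on these arrays. PODXL, in contrast, was highest on replicate 1, at 0.59 above its scrambled mean. The root mean square difference between the MUC15 and CD164 profiles, each centred on its mean over the 6 arrays, was 0.288 on the log2 scale. Of the 13710 other genes, 7 lay closer to MUC15 than CD164 did, and 76 lay closer to CD164 than MUC15 did. Both genes were chosen for being lower on these same arrays, so a small distance between them follows from the choice. Nothing is read from these ranks.

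By that measure the 3 genes closest to MUC15 were PRRX1, SDCBP and PLAC8L1, with root mean square differences of 0.154, 0.233 and 0.238 over 6 arrays. PRRX1, a mesenchymal homeobox factor, was at 327, 212 and 187 with the scrambled shRNA and at 80.5, 61.5 and 61.5 with the SALL4 shRNA. SDCBP, which encodes the adaptor syntenin, was at 544, 449.5 and 589 against 217, 153 and 160. The log2 differences were -1.80 ± 0.23 (SE) for PRRX1, -1.59 ± 0.21 for SDCBP and -2.14 ± 0.23 for PLAC8L1. These 3 genes were found by their likeness to MUC15, so their separate groups follow from the search and are no further result.

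The 3 genes closest to CD164 were CNPY1, DDIAS and HMGN2, at 0.0959, 0.142 and 0.144. DDIAS, a DNA damage-induced apoptosis suppressor gene, was at 271, 234 and 275 against 121, 116 and 106, a log2 difference of -1.18 ± 0.18 (SE). HMGN2, a nucleosome-binding protein gene, was at 1721, 1479 and 1590 against 581, 527 and 596, a difference of -1.49 ± 0.18. HMGN2 has many near-identical copies in the genome that can share signal with its probes, so its value is uncertain. CNPY1 differed by -1.39 ± 0.19. These genes share arrays and normalization with the members, and their likeness is a description.

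**Figure D3:**
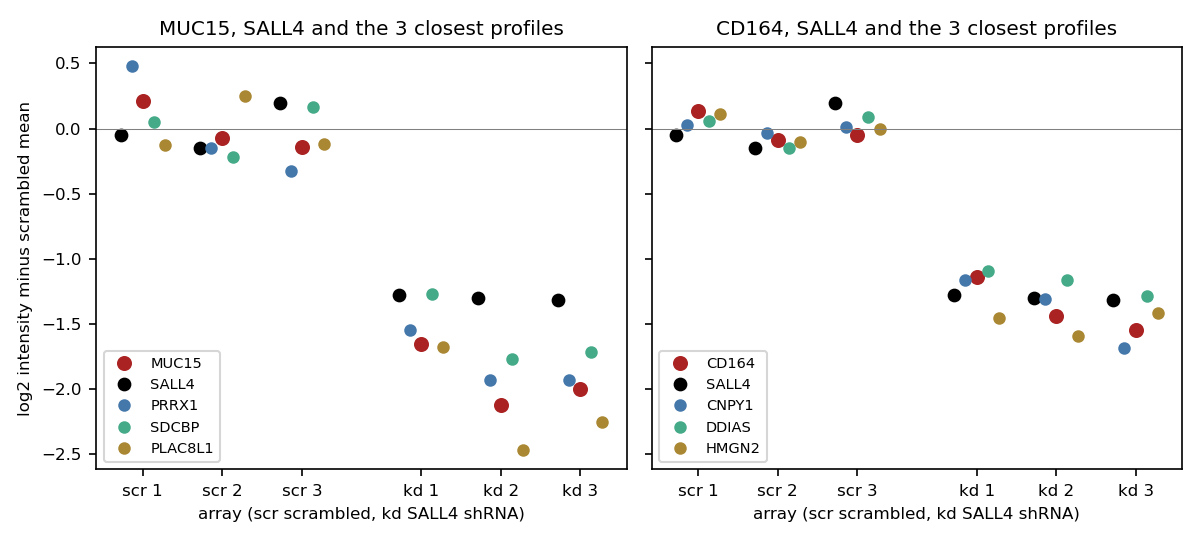
Log2 intensity minus the scrambled mean (vertical axis) on each of the 6 arrays (horizontal axis) for MUC15 (left) and CD164 (right), each with SALL4 and the 3 genes of the most similar profile; points are single arrays. On the SALL4 shRNA arrays MUC15 lies at -1.66 to -2.13, below SALL4, and CD164 at -1.14 to -1.55, around it.

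The genes next to MUC15 and CD164 in the RefSeq gene table (GRCh38.p14) had smaller differences. MUC15 and CD164 were chosen for large differences, so nothing is read from that contrast. Among these neighbours only LUZP2 and CEP57L1 were in the filtered fit, and neither passed. The MUC15 gene lies within the span of ANO3, an anoctamin family gene. ANO3 was at 29.3, 29.2 and 30.3 with the scrambled shRNA and at 26.1, 29.6 and 27.3 with the SALL4 shRNA, dim in both groups, a log2 difference of -0.10. On either side lie LUZP2, at 0.40 ± 0.25 (SE; adjusted p of 0.453 in limma), and the dim monocarboxylate transporter gene SLC5A12, at 0.33. Beside CD164, CEP57L1 was at 123.4, 188.7 and 109.9 against 123.9, 56.3 and 86.1, a difference of -0.70 ± 0.29 (SE) with overlapping groups and a limma adjusted p of 0.250. That difference is below the central 90% of genes of the fit, which starts at -0.63. PPIL6, on the other side of CD164, was dim and differed by 0.075.

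The promoter of CD164 is shown because CD164 is, beside MUC15, the member with separate groups. Promoters of 6 of the 8 members, all but MUC15 and PODXL, were matched in the RefSeq promoter table (GRCh38.p14). The 250 bases before the CD164 start lie at chr6:109382468-109382717 on the minus strand. The capitals mark the palindrome CACGTG, a form of the E-box bound by basic helix-loop-helix factors. Other forms of the E-box, with other middle bases, were not searched and are not marked.

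CD164 promoter: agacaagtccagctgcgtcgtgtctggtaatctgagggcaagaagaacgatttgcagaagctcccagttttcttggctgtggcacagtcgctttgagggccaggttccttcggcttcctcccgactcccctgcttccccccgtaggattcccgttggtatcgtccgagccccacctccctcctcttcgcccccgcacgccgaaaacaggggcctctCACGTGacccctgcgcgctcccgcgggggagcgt

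The palindrome covers bases 34 to 29 before the start. It was searched after the sequence had been seen, and 6.5% of the 27303 promoter windows of this length hold it. On both strands, 4 other words were searched. The TATA box word TATAAA is in 11.1% of all windows. The word CCAAT is in 33%, the GC box word GGGCGG in 42.3% and the word ATATT in 22%; the last was searched because zinc fingers of SALL4 are known to bind A/T-rich DNA. None of these 4 words occurs in the CD164 window. The CD164 window holds 20 CpG dinucleotides, against a median of 11 over all windows, and 62.8% G + C against a median of 58%. As many CpG or more are held by 32.1% of all windows, and 63.2% have this G + C or less. The CD164 window has the most CpG of the 6 members, with 11 in MUC1, 7 in MUC4, 6 in MUC16, 5 in MUC13 and 2 in EMCN. GGGCGG was found 4 times in the MUC1 window, once each in those of MUC4 and MUC16, and not in the others. ATATT was found in the MUC13 window, TATAAA in that of MUC1 and CCAAT in that of MUC16. A word match is a description of the sequence and no binding was measured here.

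Genes around the members were read from 7 lists: other mucins, the enzymes that build and cap their sugars, their sheddases and partners, and transcription factors known to act on mucin genes. In the filtered limma fit 1.6% of all genes passed at an adjusted p under 0.05, with 1.06% lower and 0.547% higher. These are 220 of 13711 genes; without SALL4 shRNA replicate 1, 2 or 3 the count was 103, 61 or 103, and without scrambled replicate 1, 2 or 3 it was 39, 46 or 79. Without the filter 0 of 18404 passed (2864 at an unadjusted p under 0.05, and 0% called). In the filtered fit 2320 genes, or 16.9%, had an unadjusted p under 0.05, the share beside which the counts at that p in each list stand. Across the 7 lists 1 gene passed, NEU1, which rose.

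Of 19 measured genes of other membrane mucins and sialomucins, 12 were in the filtered fit and 0 passed, with 1 at an unadjusted p under 0.05. Their median log2 difference was 0.031, with 6 negative and 6 positive. MUC20, a membrane-associated mucin of kidney and other epithelia, had means of 43.8 ± 10.7 and 62.7 ± 6.13 (SD, n = 3 each) and differed on the log2 scale by 0.54 ± 0.21 (SE; adjusted p of 0.217 in limma). MADCAM1, the mucin-like addressin of gut vessels, was at 0.45 ± 0.21. TMEM123, a mucin-like membrane protein gene, was at 948 ± 39.2 and 897 ± 54.1, and PODXL2, a relative of PODXL, at 85 ± 9.05 and 84.3 ± 28.6; both were chosen after their values were seen. CD24 and CD34, mucin-like proteins of progenitor cells, were dim in both groups, and CD24 was at the floor on 3 of 6 arrays.

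Of 7 measured genes of secreted mucins, 4 were in the filtered fit, 0 passed and 0 had an unadjusted p under 0.05 in limma. MUC6, a gel-forming stomach mucin, had means of 62.9 ± 7.24 and 77.3 ± 5.21 (SD, n = 3 each) and differed on the log2 scale by 0.30 ± 0.18 (SE). MUC5B, a gel-forming airway mucin, was at -0.22 ± 0.20. The list's median was -0.11.

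The GALNT enzymes attach the first sugar of mucin O-glycans. Of 19 measured, 12 were in the filtered fit and 0 passed in limma, with 5 of the 12 at an unadjusted p under 0.05 (16.9% of all genes of the fit) and a median of 0.0082. GALNT16 was at 98.2, 92.5 and 82.9 with the scrambled shRNA and at 50.9, 65.1 and 53 with the SALL4 shRNA, a log2 difference of -0.70 ± 0.19 (SE) with an adjusted p of 0.0801. GALNT11 was at 120, 115 and 167 against 221, 225 and 206, a difference of 0.72 ± 0.20 with an adjusted p of 0.0887. The groups of both genes were separate, in opposite directions. They were the only such genes among the 12, and 22.4% of all genes of the fit had separate groups in either direction.

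Of 10 measured genes that build or lengthen the O-glycan core, 9 were in the filtered fit and 0 passed in limma, with 1 at an unadjusted p under 0.05 and a median of -0.16. B4GALT5, a galactosyltransferase, was at 472 ± 12.6 and 662 ± 49.5 (SD, n = 3 each), a difference of 0.49 ± 0.18 (SE; adjusted p of 0.186). B3GNT3, which extends the core, was at 0.44 ± 0.23. C1GALT1, which adds the galactose of the common core, was at 242 ± 19.6 and 193 ± 15.1; it was chosen after its values were seen.

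Sialic acid genes held the only listed gene that passed. NEU1, the lysosomal sialidase that removes terminal sialic acids, was at 402, 303 and 361 on the scrambled arrays and at 700, 1053 and 608 on the SALL4 shRNA arrays. The groups were separate, and SALL4 shRNA replicate 2 was the highest array. NEU1 rose by 1.12 ± 0.23 (SE) on the log2 scale, and limma gave it an adjusted p of 0.0356 after the filter and 0.150 without it. When 1 array was left out it passed only without SALL4 shRNA replicate 3 (adjusted p of 0.0432); the others gave 0.0698 to 0.123. With the replicate number as a block the adjusted p was 0.0839.

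The other 16 of 17 sialic acid genes in the filtered fit did not pass. In all, 6 of the 17 had an unadjusted p under 0.05 in limma (16.9% of all genes of the fit), and 13 were negative and 4 positive. The median was -0.27, against 0.015 for all genes of the fit. Whether the list as a whole was lower was not tested. GNE, whose enzyme starts sialic acid synthesis, was at 173, 137 and 155 with the scrambled shRNA and at 112, 101 and 72.6 with the SALL4 shRNA. Its log2 difference was -0.73 ± 0.21 (SE), with an adjusted p of 0.100 in limma. Its groups were separate, as were those of 22.4% of all genes of the fit in either direction.

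Of 18 genes of mucin sheddases and binding partners in the filtered fit 0 passed in limma, with 5 of the 18 at an unadjusted p under 0.05 (16.9% of all genes of the fit) and a median of 0.13. LGALS1, the sugar-binding protein galectin 1, was at 282 ± 35.9 and 469 ± 48.1 (SD, n = 3 each), a difference of 0.74 ± 0.19 (SE; adjusted p of 0.0725). ADAM9, a membrane metalloproteinase, was at 952 ± 144 and 1433 ± 190 (adjusted p of 0.145). CXCR4, the receptor that CD164 can associate with, was dim in both groups, at 21.6, 34.3 and 19.3 against 30.5, 20.8 and 22.5; it was chosen after its values were seen. Of 11 transcription factors known to act on mucin genes 0 passed in limma, with 2 at an unadjusted p under 0.05 and a median of 0.14. STAT3, a cytokine-activated factor, was at 320 ± 15.8 and 526 ± 106 (0.70 ± 0.20, SE; adjusted p of 0.0947). GATA5 was at 0.46 ± 0.20.

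**Figure D4:**
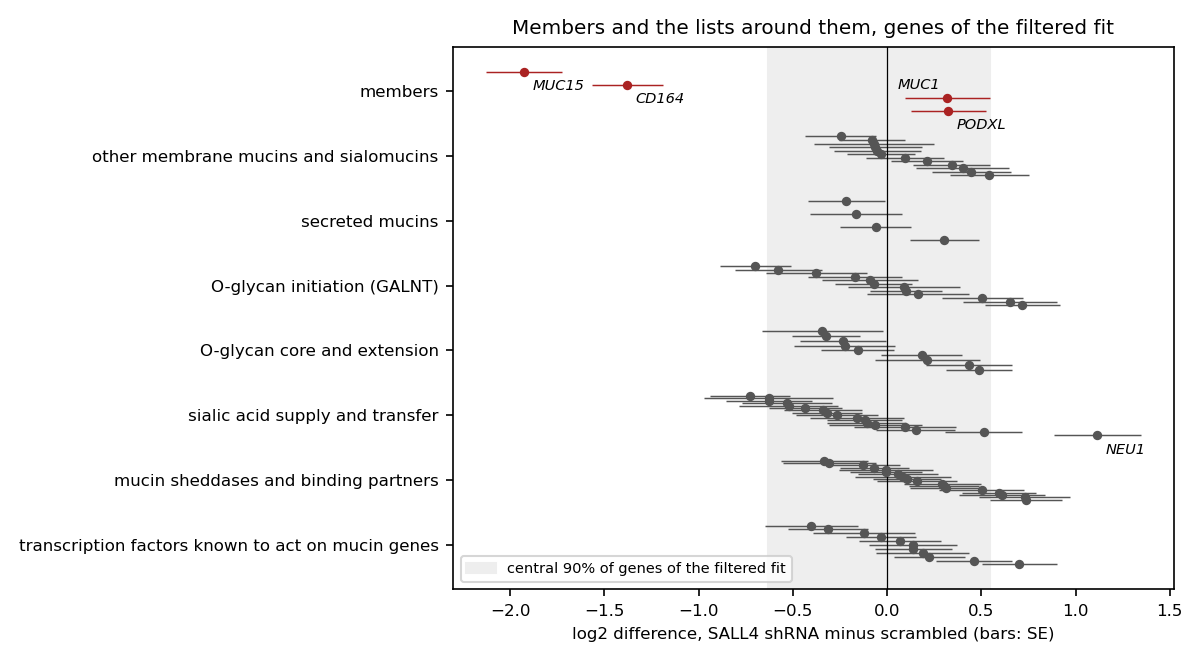
Log2 difference, SALL4 shRNA minus scrambled, with its SE (horizontal axis) for the 4 members and the genes of 7 lists in the filtered fit (rows). The grey band holds the central 90% of all genes of the fit, from -0.63 to 0.55. MUC15 and CD164 lie far below the band, NEU1 above it, and most other genes inside.

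No tested marker of other cell types that carry these mucins passed, and their levels ranged from the floor to bright. Of 10 endothelial markers, cells where EMCN and PODXL are prominent, 2 were in the filtered fit and 0 passed in limma (0 at an unadjusted p under 0.05; ROBO4 0.24 ± 0.22, SE, and CLDN5 -0.20 ± 0.23). Their summed intensity was 269 to 395 on the scrambled arrays and 320 to 369 on the SALL4 shRNA arrays. Blood cell markers summed to 137 to 167 and 152 to 168, with 0 calls and 0 genes at an unadjusted p under 0.05; of the 7, 1 was in the filtered fit (CD79A, -0.0033 ± 0.22). Cholangiocyte markers, cells known for MUC1, summed to 1321 to 1600.0 and 1339 to 1664, with 6 in the fit, 0 calls and 2 at an unadjusted p under 0.05 (ANXA4 0.76 ± 0.22 and SPP1 -0.65 ± 0.29), while CFTR was at the floor on 3 arrays. SPP1 was at -0.27 without scrambled replicate 2, its highest array. EPCAM was bright, at 803 to 1138 over the 6 arrays, and was the largest part of the cholangiocyte sums. SOX9 lay between 93.75 and 156.05.

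Mesothelial markers, cells known for MUC16, had summed ranges that overlap, up to 251 on the SALL4 shRNA arrays, with 4 in the fit and 0 calls (0 at an unadjusted p under 0.05; WT1 -0.40 ± 0.25, SE, and CALB2 0.22 ± 0.25). Goblet and secretory epithelial markers summed to 299.5 to 308 and 264 to 319, with 5 in the fit and 0 calls (0 at an unadjusted p under 0.05; TFF2 -0.37 ± 0.20 and TFF3 0.21 ± 0.25). Of the liver tumour markers 5 were in the fit and 0 were called, with KRT8 at 0.64 ± 0.29, the 1 gene at an unadjusted p under 0.05, and APOA1 at -0.25 ± 0.19. KRT8 was at 0.32 without scrambled replicate 1 and at 0.39 without SALL4 shRNA replicate 2. The summed ranges of the groups overlap in each of these 6 lists.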

How the data were processed

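Total RNA, labelled from 6 ug, was measured on 6 Affymetrix arrays. The deposited table holds intensity values that the authors made with RMA, per the submitters' processing notes; its version, any later steps and the genome build are not stated in those notes. RMA gives log2 values, yet the table is linear with no intensity under 10 (15.5% to 16.9% of values per array are at 10). Differences of genes with values at 10 can therefore be understated. Log2 was taken here. Of 32319 probe sets, 19158 carry a single gene symbol, 1388 carry several, and the annotation lists no entry for 11773. Symbols were updated by Entrez identifier (19128 matched), and the probe set with the highest mean was used per gene.

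SALL4 shRNA minus scrambled was tested in R 4.3.3 with limma 3.58.1 (two-sided, Benjamini-Hochberg, threshold 0.05) on 13711 genes with a mean log2 of at least 5 in at least 1 group. Without the filter 0 of 18404 genes passed (2864 at an unadjusted p under 0.05). The fit was also run on simulated data with independent normal noise and differences planted in brighter genes only. That run checked the size of the estimates and does not cover dim genes. The members and lists, and this filter, were chosen with earlier results of these data known. Named from each list were genes that passed (up to 4) and otherwise the lowest p until 2 were named; closest genes and neighbours followed a fixed rule. With 3 arrays a group an exact permutation p cannot go under 0.1, and the number of arrays limits the precision. Alternatives are in the closing section.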

Additional observations from a re-analysis of the deposited data

How the results depend on the processing

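The differences of MUC15 and CD164 kept their sign under all 11 alternatives run for them. Both were chosen for being lower on these arrays and their groups were separate, so leaving out arrays could not change the sign. Nothing is read from the kept sign. Leaving out 1 array gave -2.06 to -1.82 for MUC15 and -1.50 to -1.29 for CD164, and log2(value + 16) gave -1.56 for MUC15, as an added constant shrinks differences of dim genes by construction. The other members moved by less than their replicate SD. The count of 220 genes called varied widely. Leaving out a scrambled array gave 39 (replicate 1), 46 (replicate 2) or 79 (replicate 3), and leaving out a SALL4 shRNA array gave 103, 61 or 103 in that order. With scrambled array 3 and SALL4 shRNA array 2 both left out it fell to 15. It was 0 with no filter, 363 with a filter at log2 of 6, 445 with log2(value + 16) and 500 with trend and robust settings. The fits with arrays left out hold fewer arrays, and the cause of these changes was not tested. With no filter the prior degrees of freedom, the weight limma gives to the spread shared across genes, were 1.09. They were 8.01 in the main fit. The 1 listed gene called, NEU1, became 0 to 1 without 1 array, 0 without both arrays together and 0 with no filter. It became 2 (with LGALS1) with log2(value + 16), and 4 with trend and robust settings (with LGALS1, ADAM9 and STAT3). Replicate numbers are shared between the groups. Deviations of same-numbered arrays correlated at 0.0029, -0.083 and -0.039, and those of differently numbered arrays at -0.066 to 0.094. With 3 arrays a group these values cannot show whether same-numbered cultures were handled together, and the main fit did not pair them. With the replicate block 41 genes and 0 listed genes were called. Some uncalled markers changed sign. Without 1 array CD79A ranged from -0.19 to 0.18, CALB2 from -0.078 to 0.39 and TFF3 from -0.028 to 0.40. Without both arrays together ROBO4 was -0.043, CD79A 0.037 and TFF3 -0.14. CD79A was 0.046 with quantile normalization and 0.0032 with log2(value + 16). Dim signal limits MUC4 and MUC16, and the floor limits MUC13 and EMCN. MUC15 was also dim on the SALL4 shRNA arrays, at 43.5, 31.4 and 34.3, near the filter intensity of 32. How much of that signal is background was not tested, so the size of its difference is uncertain.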
